A study of Mus musculus with 14 samples.

Results

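The miR-23/27/24 clusters are 2 groups of microRNA (miRNA) genes, an a cluster and a b cluster, that each hold a miR-23, a miR-27 and a miR-24 hairpin. Their members were chosen by name: the 10 lines of a table of 1250 miRNA lines named mmu-miR-23a-3p, mmu-miR-23a-5p, mmu-miR-23b-3p, mmu-miR-27a-3p, mmu-miR-27a-5p, mmu-miR-27b-3p, mmu-miR-27b-5p, mmu-miR-24-3p, mmu-miR-24-1-5p and mmu-miR-24-2-5p, written here without the mouse prefix. Small RNA had been sequenced from 14 mouse libraries whose source is bone marrow and whose labels call the cells macrophages. Exosomes, small vesicles that cells shed, had been purified from culture supernatant on an OptiPrep gradient and gave 4 control and 4 IL4 libraries, and cell lysates gave 3 control and 3 IL4 libraries. The control libraries are labelled wild type and carry WT in their titles. The IL4 libraries are labelled as stimulated macrophages and carry IL4 in their titles, and neither a dose nor a time of treatment is given in the labels. The label for tissue is excised bone in all 4 groups. The titles also hold a date. Exosome replicates 1 to 3 are dated 25 January, 16 March and 5 April, and replicate 4 is dated 29 December of the year before, with 1 control and 1 IL4 library on each date. Lysate replicates 1 to 3 are dated 23 January, 14 March and 21 March, so that no exosome library shares a date with a lysate. Whether a date stands for another animal or culture is not in the labels, so a p-value here measures the spread among these libraries alone, and that spread may be technical.

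A miRNA gene is transcribed as a hairpin, and its arms, named 5p and 3p for their side of the hairpin, are cut out as short RNAs. An arm that is loaded into an Argonaute protein finds target messenger RNAs mainly through its seed, bases 2 to 8, and lowers their translation and stability, while the other arm is usually degraded. The miR-23, miR-27 and miR-24 hairpins of a cluster lie close together on the same strand and are transcribed as 1 precursor, and the mammalian genome holds the a and b clusters on different chromosomes. miR-27a and miR-27b are known as repressors of lipid and cholesterol genes such as Abca1 and Pparg, and members of the family have been described as regulators of macrophage activation.

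In GENCODE M21 for GRCm38, the a cluster spanned 404 bases of the plus strand, chr8:84208518-84208921. Mir23a and Mir27a overlapped no other annotated gene there, and Mir24-2 overlapped an exon of the long non-coding RNA gene Gm26532. The b cluster spanned 792 bases of the plus strand, chr13:63300484-63301275, inside the gene 2010111I01Rik on the same strand and Fancc on the opposite strand. Mir23b overlapped no exon, while Mir27b and Mir24-1 overlapped an exon of some 2010111I01Rik transcript. The opposite strand of Mir24-2 and of Mir24-1 is annotated as Mir3074-2 and Mir3074-1. RefSeq (GRCm38.p6) gave a mature sequence for 9 of the 10 lines. They are shown because the a and b copies differ by few bases, and the comparison of the clusters rests on telling them apart. Capitals mark the seed, and each sequence is read 5′ to 3′.
miR-27a-3p: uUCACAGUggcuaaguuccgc
miR-27b-3p: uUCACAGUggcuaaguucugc
miR-23a-3p: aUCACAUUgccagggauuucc
miR-24-3p: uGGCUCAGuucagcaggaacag
miR-24-1-5p: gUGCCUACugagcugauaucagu
miR-24-2-5p: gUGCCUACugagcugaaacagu
miR-23a-5p: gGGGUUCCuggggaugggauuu
miR-27a-5p: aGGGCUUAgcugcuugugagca
miR-27b-5p: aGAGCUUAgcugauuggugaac
miR-27a-3p and miR-27b-3p shared the seed UCACAGU and differed over their 21 bases by the single substitution C19U, counted from the 5′ end of miR-27a-3p. Reads that end before that base fit both lines, and how the counting treated them is not given in the sources used here. miR-24-1-5p and miR-24-2-5p shared the seed UGCCUAC and their first 16 bases, and are 23 and 22 bases long. The passenger arms miR-27a-5p and miR-27b-5p did not share a seed. miR-23b-3p is the line for which no sequence is printed.

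miR-24-3p is made from both clusters, so its line belongs to neither of them alone, whereas the 5p arm tells the hairpins apart. The Mir24-1 (b cluster, chr13:63301208-63301275) and Mir24-2 (a cluster, chr8:84208815-84208921) hairpins are shown for this reason, with the 5p arm and then the 3p arm in capitals.
Mir24-1: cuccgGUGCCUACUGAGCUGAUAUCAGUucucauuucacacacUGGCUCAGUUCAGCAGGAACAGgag
Mir24-2: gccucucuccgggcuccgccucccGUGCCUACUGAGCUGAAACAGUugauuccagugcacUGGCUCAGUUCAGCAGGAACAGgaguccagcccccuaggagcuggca

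Exosome libraries held 28417 to 411671 counts and lysates 3941480 to 6792079, so that 1 read was worth 2.43 to 35.2 CPM (counts scaled to a library total of 1000000) in exosomes and 0.147 to 0.254 CPM in lysates. Exosome values of that order therefore rest on a few reads. The lines listed as myeloid markers, miR-223-3p, miR-223-5p, miR-142a-3p and miR-142a-5p, were all detected. They summed to 1.64% to 3.74% of exosome counts and 1.22% to 3.25% of lysate counts, and do not identify macrophages in particular. Markers of red cells summed to 2.18% to 5.53% of exosome counts against 0.0117% to 0.0211% of lysate counts. Endothelial markers summed to 0.410% to 2.75% against 0.00134% to 0.00339%, and epithelial markers to 0.0360% to 10.5% against 0.0161% to 0.0267%. The epithelial sum in exosomes was mostly 1 of its 7 lines: miR-203-3p made up 54.7% to 98.2% of it there and 4.84% to 8.57% in lysates. The other 6 lines summed to 0.0163% to 0.460% of exosome counts and 0.0153% to 0.0247% of lysate counts, which overlapped. Of 5 epithelial lines tested between exosomes and lysates, 2 were called higher in either treatment by edgeR, miR-203-3p and miR-205-5p. Of all lines tested, 29.3% were called higher in controls and 30.2% with IL4. Exosome libraries alone carried miR-205-5p past the filter on low counts. The median log2 difference of the 5 was 0.16 in controls and 0.38 with IL4. In lysates all 4 red cell, both endothelial and 6 of 7 epithelial lines had counts, and miR-205-5p was at 0. Values are shares of a library, so fewer cells of a type and less RNA per cell cannot be told apart. The part of such markers in the differences between exosomes and lysates given here was not tested.

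The 10 lines together took 5.89% to 11.5% of the counts of an exosome library and 6.56% to 7.50% of those of a lysate. The guide arms carried nearly all of these counts. miR-27b-3p, the guide arm of the b cluster's miR-27, led in all 4 group means and ranked between 6 and 10 among all lines in every library. Its mean was 24429 ± 1445 CPM (SD, n = 4) in control exosomes, 25990.5 ± 8506 (n = 4) in IL4 exosomes, 25575 ± 770.5 (n = 3) in control lysates and 24947 ± 1090 (n = 3) in IL4 lysates. Mature miRNAs are of nearly equal length, so no length correction was made, but library preparation captures sequences with unequal efficiency and the order is one of counts.

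In control exosomes the order after miR-27b-3p was miR-23a-3p (mean 18771 CPM), miR-23b-3p (12591), miR-24-3p (9917) and miR-27a-3p (8301). From miR-23a-3p on, each neighbour in that order overlapped the next in its range over libraries. In IL4 exosomes the order of the 2 lowest was turned, with miR-27a-3p at 10432 and miR-24-3p at 6631 CPM, and all 5 overlapped with their neighbour. In lysates miR-23b-3p stood above miR-23a-3p, with 17042 against 16084 CPM in controls, where the ranges overlapped, and 17999 against 13877 CPM with IL4, where they did not. miR-24-3p (9079 and 7949 CPM) and miR-27a-3p (3737 and 2868 CPM) followed, apart from each other and from their neighbours in both lysate groups.

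**Figure D1:**
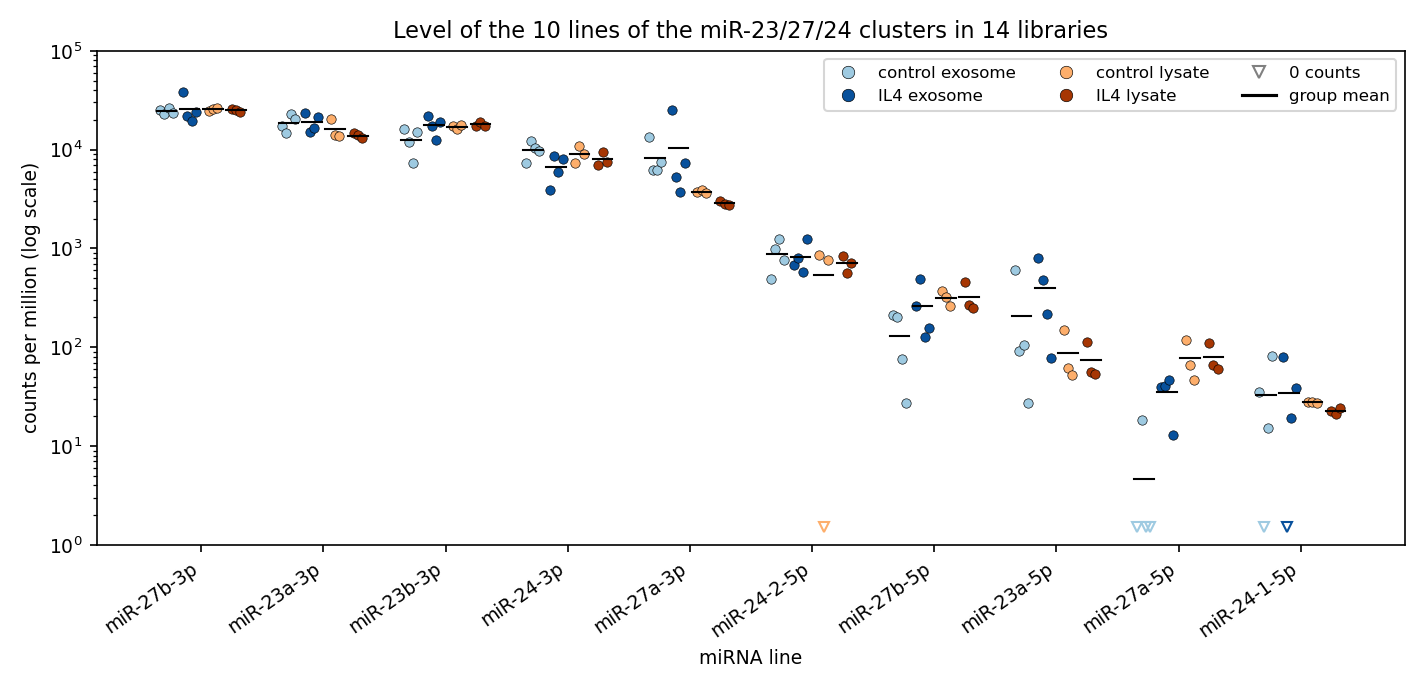
CPM on a log axis for each of the 10 lines in each of the 14 libraries, by group, with the group mean as a line and libraries with 0 counts as open triangles at the bottom. The 5 lines with high counts lie between 2771 and 38395 CPM in every library, miR-27a-3p is higher in exosomes than in lysates except for the overlap of 1 IL4 exosome library with the control lysates, and miR-24-2-5p is at 0 in 1 control lysate.

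The a cluster made up a larger part of the miR-27 counts in exosomes than in lysates. A share within 1 library does not depend on how libraries are scaled to each other, which matters here because the scaling moved the comparison of exosomes with lysates. miR-27a-3p stood at 13267, 6160, 6286 and 7491 CPM in control exosome replicates 1 to 4, and at 25404, 5265, 3734 and 7324 CPM in IL4 exosomes. In lysates it stood at 3694, 3873 and 3645 CPM in controls and at 3030, 2801 and 2771 CPM with IL4. Replicate 1 was the highest library in both exosome groups, and 1 IL4 exosome library, replicate 3, fell among the control lysates.

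Against miR-27b-3p, which carries the same seed, miR-27a-3p made up 34.6%, 21.2%, 19.4% and 24.1% of the sum of the pair in control exosomes and 39.8%, 19.3%, 16.2% and 23.2% in IL4 exosomes. The share was 13.0%, 13.1% and 12.2% in control lysates and 10.4%, 10.1% and 10.4% in IL4 lysates. The 8 exosome libraries were all above the 6 lysates. The log2 ratio of miR-27a-3p to miR-27b-3p was -1.63 ± 0.50 (SD, n = 4) in control exosomes, -1.69 ± 0.78 (n = 4) in IL4 exosomes, -2.77 ± 0.07 (n = 3) in control lysates and -3.12 ± 0.03 (n = 3) in IL4 lysates. The mean difference between exosomes and lysates was 1.29 on the log2 scale, or 2.44-fold (two-sided exact permutation test within treatments, p = 0.00163, adjusted p = 0.0359 over 22 ratio tests). It was the only one of the 22 with an adjusted p at or under 0.05. That test takes each library as a unit, while the control and IL4 exosomes of a date, and likewise the lysates, deviated together. With the control and IL4 values of a date averaged first, which leaves 4 exosome and 3 lysate dates, the difference of 1.29 had an exact permutation p of 0.0571 (adjusted p = 0.350) and did not pass. The smallest p that these dates allow is 0.0286, which could not pass after adjustment. All 4 exosome dates were above the 3 lysate dates. Over 19 alternatives the difference stayed between 0.99 and 1.43 and the adjusted p ran from 0.0314 to 0.350, passing in 7.

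The 25 January exosome libraries were the highest in this share. They were also the highest in miR-203-3p, 1 of the 7 epithelial lines, with 47542 CPM in the control and 100436 CPM in the IL4 library against 196.8 to 17803 CPM in the other 6 exosome libraries. The sum of the other 6 epithelial lines was 1337 and 4597 CPM in these libraries, against 163 to 684 CPM in the other exosomes. The part of these markers in the share was not tested. Without both, the difference was 0.99 with an adjusted p of 0.0629 by the same exact permutation test, and the remaining 6 exosome libraries, at 16.2% to 24.1%, were all above the lysates. Leaving out 1 library at a time gave differences of 1.11 to 1.40, and the adjusted p rose to 0.0629 without any 1 of the 4 control exosome libraries, any 1 of the 3 IL4 lysates or control lysate replicate 3.

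The miR-23 pair pointed the same way by less. miR-23a-3p made up 51.9%, 55.0%, 75.7% and 57.6% of the miR-23a-3p and miR-23b-3p counts in control exosomes, 52.2%, 46.6%, 56.8% and 52.9% in IL4 exosomes, 54.1%, 46.9% and 43.5% in control lysates and 45.7%, 42.1% and 42.8% in IL4 lysates. Control lysate replicate 1, at 54.1%, lay among the exosomes, and IL4 exosome replicate 2, at 46.6%, just below control lysate replicate 2, so the compartments overlapped. The mean log2 difference in the ratio was 0.61, or 1.53-fold (exact permutation p = 0.00571, adjusted p = 0.0629), and it did not pass. Within the a cluster, the log2 ratio of miR-23a-3p to miR-27a-3p was lower in exosomes than in lysates by a mean difference of -0.93 (exact permutation p = 0.00898, adjusted p = 0.0659). Within the b cluster, that of miR-23b-3p to miR-27b-3p differed by -0.25 (exact permutation p = 0.179, adjusted p = 0.457). The log2 ratio of miR-24-3p to miR-27b-3p differed by -0.07 (exact permutation p = 0.891, adjusted p = 0.988).

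**Figure D2:**
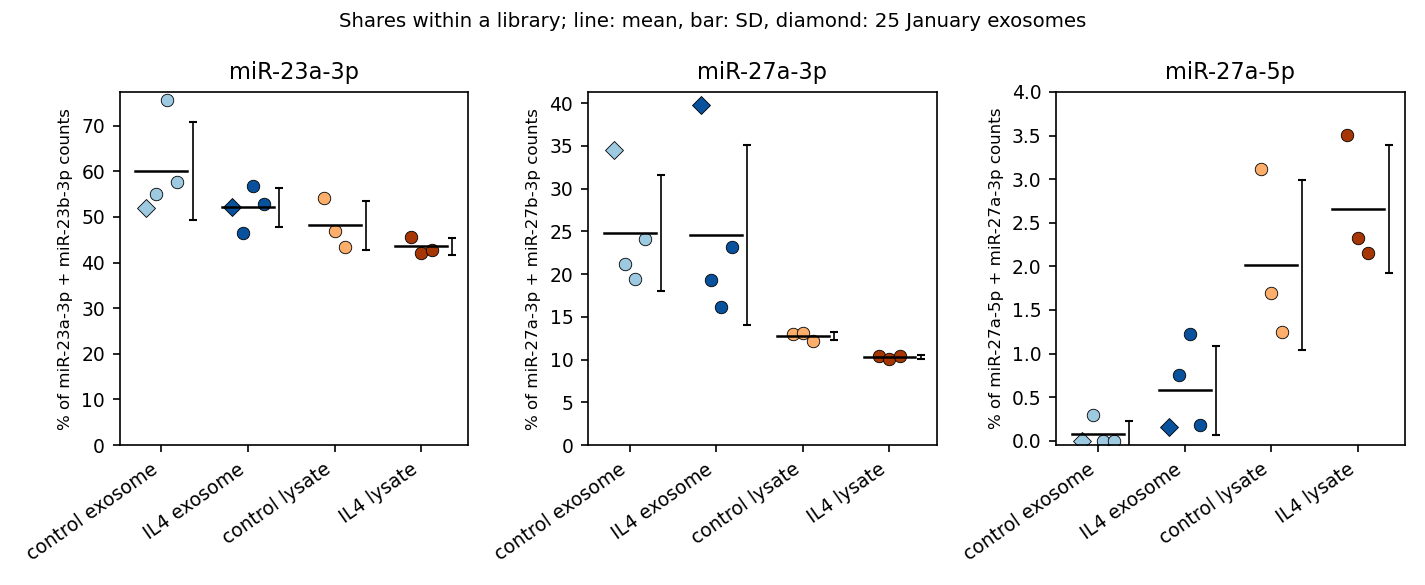
Percent of counts within each library for miR-23a-3p of the miR-23 pair, miR-27a-3p of the miR-27 pair and the 5p arm of miR-27a, by group, with the mean as a line, the SD as a bar and the 25 January exosome libraries as diamonds. For miR-27a-3p the exosome libraries lie at 16.2% to 39.8% and the lysates at 10.1% to 13.1%, and for miR-27a-5p the exosome libraries lie at 0 to 1.22% and the lysates at 1.25% to 3.50%.

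The passenger arm of miR-27a was lower in exosomes than in lysates. miR-27a-5p had 0, 1, 0 and 0 counts in control exosomes. In IL4 exosomes it had 2, 3, 19 and 1 counts, or 40.0, 40.2, 46.2 and 13.0 CPM. In control lysates it stood at 119, 66.7 and 46.1 CPM and in IL4 lysates at 110, 66.7 and 60.9 CPM. The highest exosome library, IL4 replicate 3, was just above the lowest lysate, control replicate 3, and in both treatments the exosome and lysate groups did not overlap, as was so with exosomes lower for 10.4% of all lines in controls and 7.69% with IL4.

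Pooled over a group, miR-27a-5p was 1 of 2238 counts of the miR-27a arms in control exosomes, or 0.0447% (exact binomial 95% interval 0.00113% to 0.249%), and 25 of 3788 in IL4 exosomes, or 0.660% (0.428% to 0.973%). Of those 25 reads, 19 came from IL4 exosome replicate 3, and without it the share was 6 of 2232, or 0.269% (0.0987% to 0.584%). Single IL4 exosome libraries ran from 0.157% to 1.22%. In lysates it was 2.01% (1.91% to 2.12%) in controls and 2.76% (2.61% to 2.92%) with IL4. These intervals cover counting error only. In control exosome replicates 1, 3 and 4 the count of 0 allows a share of up to 0.796%, 0.240% and 1.09%. Scaled to the library totals, the control lysates held 24.5 times the level of the control exosomes (exact 95% counting interval 4.39 to 969), and the IL4 lysates 2.0 times that of the IL4 exosomes (1.35 to 3.11). Without control exosome replicate 3, which held most of the control exosome counts, the former was 9.19 times. Without control exosome replicate 2, which held the only read, it was at least 6.78-fold, against a floor of 3 counts over the group.

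edgeR's quasi-likelihood test gave a log2 difference of -5.27 (SE 0.88, adjusted p = 0.000233) between control exosomes and lysates, which rests on that single read and depends on the prior count. It passed in all 12 alternatives that tested the line, but these use the same control exosomes with at most 1 read and are no separate support. The fit of the control libraries alone left the line out as too low in counts. In the fit of all 14 libraries, groups other than the control exosomes carried it past the filter on low counts. The log2 difference was -3.72 without control exosome replicate 3 and -10.62 without control exosome replicate 2, which leaves the control exosomes at 0. With IL4 the log2 difference was -1.78 (SE 0.52, adjusted p = 0.0113), and it passed in 10 of 14 alternatives. The IL4 exosomes held 13.0 times the level of the control exosomes (2.13 to 533, counting error only), 4.87 times without control exosome replicate 3 and, against the same floor, at least 3.59-fold without control exosome replicate 2. On 4 of 4 exosome dates miR-27a-5p was higher with IL4, by 2 against 0, 3 against 1, 19 against 0 and 1 against 0 reads in replicates 1 to 4. The IL4 library was the deeper on each date. In replicate 4, 1 read was worth 13.0 CPM with IL4 and 27.3 CPM in the control. The line was too low to be tested for IL4 in the fit of exosomes alone. In the fit of all 14 libraries, the IL4 effect in exosomes was above that in lysates by 3.49 (SE 1.15) on the log2 scale, which did not pass (edgeR's quasi-likelihood test, adjusted p = 0.857; 0.00849 unadjusted). That value was 2.10 without control exosome replicate 3 and 8.91 without control exosome replicate 2.

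The passenger arm of miR-27b stood at 211, 202, 75.4 and 27.3 CPM in control exosomes, 260, 496, 126 and 156 CPM in IL4 exosomes, 367, 320 and 260 CPM in control lysates and 457, 269 and 249 CPM in IL4 lysates. All control exosomes, with 6, 11, 15 and 1 reads of it, were below all control lysates, as was so for 10.4% of all lines. The IL4 groups overlapped. The log2 ratio of miR-27b-3p to miR-27b-5p was higher in exosomes by a mean difference of 1.05, or 2.08-fold (exact permutation p = 0.0637, adjusted p = 0.350). For miR-23a the 5p arm did not share this direction. miR-23a-5p was 0.134% to 3.32% of the arms in exosomes and 0.378% to 0.759% in lysates, and the log2 ratio of the 3p to the 5p arm differed by -0.94 (exact permutation p = 0.226, adjusted p = 0.457).

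The 5p arms of miR-24 tell its hairpins apart. miR-24-2-5p, of the a cluster, was the larger of the pair in 13 of 14 libraries. It stood at 493, 993, 1231 and 766 CPM in control exosomes, 680, 804, 581 and 1238 CPM in IL4 exosomes and 842, 563 and 713 CPM in IL4 lysates. miR-24-1-5p, of the b cluster, stood between 0 and 82.0 CPM in exosomes and between 21.1 and 28.0 CPM in lysates, and took 2.01% (0.812% to 4.10%) of the pooled pair in control exosomes, 3.39% (1.91% to 5.52%) in IL4 exosomes and 3.04% (2.73% to 3.38%) in IL4 lysates.

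The control lysates held the exception. miR-24-2-5p stood at 860 and 764 CPM in replicates 1 and 3 and had 0 counts in replicate 2, the library of 14 March, which is the deepest of the series. In the other 5 lysates it had 2221 to 4947 counts, with a mean of 749 ± 119 CPM (SD, n = 5). A count of 0 in replicate 2 allows up to 0.442 CPM, so the line was at least 1695-fold lower there than that mean. It was the only one of the 1250 lines with 0 counts in 1 lysate and at least 50 in each of the others, a search made after the value was seen. In the same library miR-24-1-5p had 190 counts (28.0 CPM, against 21.1 to 27.6 in the other lysates) and miR-24-3p stood at 10780 CPM, the highest of the lysates. No line that reached 50% of the lowest level of miR-24-2-5p in the other 5 lysates (563 CPM) was more than 2-fold higher in replicate 2 than in every other lysate. miR-24-2-5p is therefore given with and without this library. The share of miR-24-1-5p in the pooled pair was 5.17% (4.73% to 5.63%) over the 3 control lysates and 3.26% (2.91% to 3.64%) without replicate 2.

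Each line was also compared between exosomes and lysates in the fit over the whole table. In controls 4 of 10 members passed at an adjusted p of 0.05 and all 4 were lower in exosomes, where 50.9% of the 338 lines tested passed and 21.6% passed as lower. These were miR-23b-3p (log2 difference -1.20, SE 0.33, adjusted p = 0.0063), miR-27b-3p (-0.86, SE 0.29, adjusted p = 0.0207), miR-27b-5p (-2.17, SE 0.54, adjusted p = 0.00377) and miR-27a-5p, by edgeR's quasi-likelihood test. The call of miR-27a-5p rests on 1 read in the control exosomes. Of those 4, 3 belong to the b cluster, whose other line, miR-24-1-5p, did not pass (adjusted p = 0.455 by edgeR). With the library size alone as scaling, none of these 3 passed. With IL4, 2 of 10 passed, both lower, where 49.4% of all lines passed and 19.2% passed as lower: miR-24-3p (-0.99, SE 0.29, adjusted p = 0.0115) and miR-27a-5p. The median log2 difference of the members was -0.79 in controls and -0.51 with IL4, against -0.18 and -0.01 over all lines tested.

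Some of these calls also turned on 1 library, by the adjusted p of edgeR's quasi-likelihood test. In controls, miR-27b-3p did not pass without control exosome replicate 1 (0.0891), control exosome replicate 3 (0.0849) or control lysate replicate 2 (0.0682). With IL4, miR-27a-5p did not pass without IL4 exosome replicate 4 (0.0561), IL4 lysate replicate 1 (0.0916) or IL4 lysate replicate 2 (0.0566), and miR-24-3p did not pass without IL4 lysate replicate 2 (0.124) or 3 (0.0568). Leaving out each of the 7 control libraries in turn did not end the calls of miR-23b-3p, miR-27b-5p and miR-27a-5p in controls. That of miR-27a-5p rests on 1 read in the control exosomes, and on 0 without control exosome replicate 2. The control comparison was not refitted without single IL4 libraries, which share its estimate of the spread.

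The calls also depended on the scaling between libraries. With DESeq2's size factors, miR-23b-3p (-0.79, adjusted p = 0.0535) and miR-27b-3p (-0.46, adjusted p = 0.195) no longer passed in controls by edgeR. The median over all lines tested was -0.18 with TMM factors, 0.22 with DESeq2's size factors and 0.63 with the library size alone in controls, and -0.01, 0.29 and 0.68 with IL4. With the library size alone, miR-27a-5p was the only member called lower in controls, where 4.73% of all lines were. With IL4 none was called lower, and miR-27a-3p (1.86, adjusted p = 0.00953) and miR-23a-5p (2.37, adjusted p = 0.0294) were called higher by edgeR, where 37.9% of all lines were. Over all lines, the share of calls that were higher in exosomes moved from 57.6% to 88.7% in controls and from 61.1% to 91.4% with IL4. In CPM, miR-27a-3p was above the lysates in every exosome library of the same treatment, which held for 27.2% of all lines in controls and 28.7% with IL4, where miR-23a-3p was the other such member. Its log2 difference on the TMM scale was 0.38 (SE 0.59, adjusted p = 0.605) in controls and 1.30 (SE 0.61, adjusted p = 0.0904) with IL4. The control value turned to -0.02 without the 25 January exosome libraries and to -0.15 with no filter on low counts. The IL4 value fell to 0.13 (adjusted p = 0.714 by edgeR) without the 25 January exosome libraries and to 0.26 (adjusted p = 0.514) without IL4 exosome replicate 1. Without IL4 exosome replicates 2, 3 or 4 it was 1.63, 1.70 and 1.69 (adjusted p = 0.0304, 0.0248 and 0.0481).

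**Figure D3:**
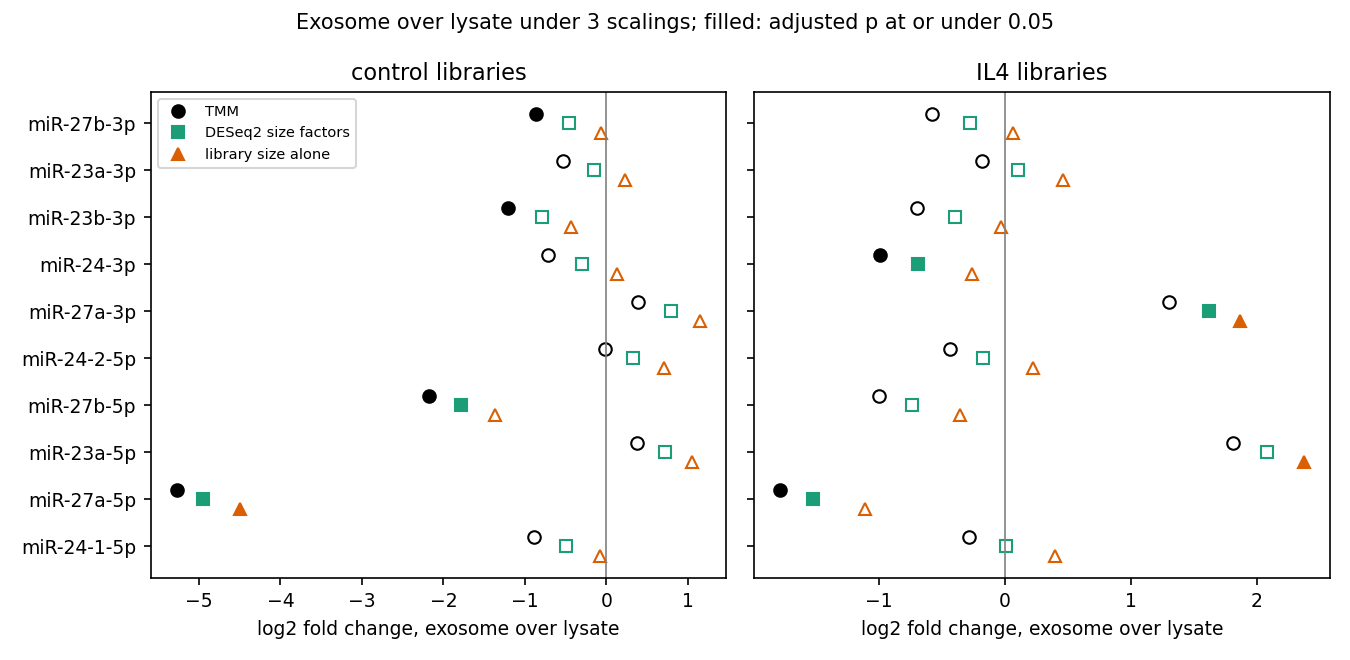
Log2 fold change of exosomes over lysates for the 10 lines under 3 ways of scaling libraries to each other, in control and in IL4 libraries, with filled symbols at an adjusted p at or under 0.05. All lines move to the right from TMM to library size alone, and miR-27a-5p is called in controls under each scaling, on 1 read in the control exosomes.

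IL4 was compared with control within exosomes and within lysates. No member passed in either compartment. In exosomes 8 of the 10 lines had enough counts to be tested and 0 passed, where 1 of 182 lines, or 0.549%, passed, and 0 members had an unadjusted p under 0.05 by edgeR's quasi-likelihood test. DESeq2 also called 0 members. In lysates 10 were tested and 0 passed, where 32 of 443 lines, or 7.22%, passed (50 with the date as a replicate block, again 0 of them members), with 0 members at an unadjusted p under 0.05 and 0 called by DESeq2. A list of 22 miRNAs linked to macrophage activation had 1 line called higher of 16 tested in exosomes, miR-146b-5p (log2 difference 1.65, SE 0.27, adjusted p = 0.0296), and 8 higher and 3 lower of 21 tested in lysates, a list that was set with earlier results of these libraries known. There miR-146b-5p was higher by 2.76 (SE 0.32, adjusted p = 0.00754) and miR-223-3p fell by 1.24 (SE 0.17, adjusted p = 0.00754).

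In lysates the intervals of the miR-23 and miR-27 guide arms were the narrowest of the members. The log2 difference of miR-27b-3p was 0.16 (SE 0.15, 95% interval -0.18 to 0.49), that of miR-23a-3p 0.00 (SE 0.15, -0.34 to 0.34) and that of miR-23b-3p 0.28 (SE 0.15, -0.06 to 0.62). miR-27a-3p stood at 3645 to 3873 CPM in control lysates and 2771 to 3030 with IL4, groups that did not overlap, as was so with IL4 lower for 15.3% of all lines. Its log2 difference was -0.19 (SE 0.16, adjusted p = 0.760 by edgeR's quasi-likelihood test). Its log2 ratio to miR-27b-3p was lower with IL4 on 3 of 3 dates, by -0.35 on average, with an exact permutation p of 0.1, the smallest that 3 against 3 libraries allow (adjusted p = 0.419).

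miR-24-1-5p was the other member whose lysate groups did not overlap, again as for the 15.3% of all lines that were lower with IL4. It stood at 27.2 to 28.0 CPM in controls and 21.1 to 24.3 CPM with IL4 (log2 difference -0.08, SE 0.23, adjusted p = 0.958 by edgeR). miR-24-2-5p had a log2 difference of 0.65 with an interval of -2.71 to 4.00 with the library at 0 in the fit. Without control lysate replicate 2 it was 0.03 (adjusted p = 0.995 by edgeR). Between control exosomes and control lysates its log2 difference was -0.02 with that library and -0.61 without it (adjusted p = 0.989 and 0.200 by edgeR), and between IL4 exosomes and IL4 lysates it was -0.44 and -0.46 (adjusted p = 0.762 and 0.263 by edgeR). The difference of its IL4 effects turned from -0.42 to 0.14.

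No guide arm passed in exosomes. miR-23b-3p stood at 16152, 11898, 7331 and 14983 CPM in controls and 21726, 17241, 12495 and 18872 CPM with IL4. It was higher with IL4 on 4 of 4 dates while the groups overlapped, with a log2 difference of 0.63 (SE 0.34, 95% interval -0.12 to 1.39, adjusted p = 0.804 by edgeR). miR-24-3p stood at 7320, 12302, 10421 and 9624 CPM in controls and 3917, 8668, 5910 and 8028 CPM with IL4. It was lower with IL4 on 4 of 4 exosome dates (-0.43, SE 0.25, 95% interval -0.98 to 0.13, adjusted p = 0.804 by edgeR) and on 3 of 3 lysate dates in CPM, though the lysate log2 difference was -0.01 (SE 0.25) on the TMM scale.

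In exosomes miR-23a-5p, miR-27b-5p and miR-27a-3p had the widest intervals of the members tested. miR-23a-3p stood at 17419, 14564, 22786 and 20314 CPM in control and 23705, 15018, 16457 and 21218 CPM in IL4 exosomes (0.19, SE 0.27). miR-27a-3p had a log2 difference of 0.54 (SE 0.64, 95% interval -0.89 to 1.98), and it was higher with IL4 only on 25 January and lower on the other 3 dates. Without the 25 January libraries its difference was -0.11. The passenger arms miR-23a-5p (1.22, SE 0.95) and miR-27b-5p (1.22, SE 0.66) were higher with IL4 on 4 of 4 dates with overlapping groups, and neither passed. For miR-23a-5p the difference was 2.66 without control exosome replicate 1 and 0.57 without IL4 exosome replicate 1. The difference between the IL4 effects of exosomes and lysates passed for 0 of 10 members, where 0 of 338 lines, or 0.0%, passed by edgeR's quasi-likelihood test. Of the members, 1 had an unadjusted p under 0.05, miR-27a-5p, and of all lines 14. DESeq2 called 0 members.

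**Figure D4:**
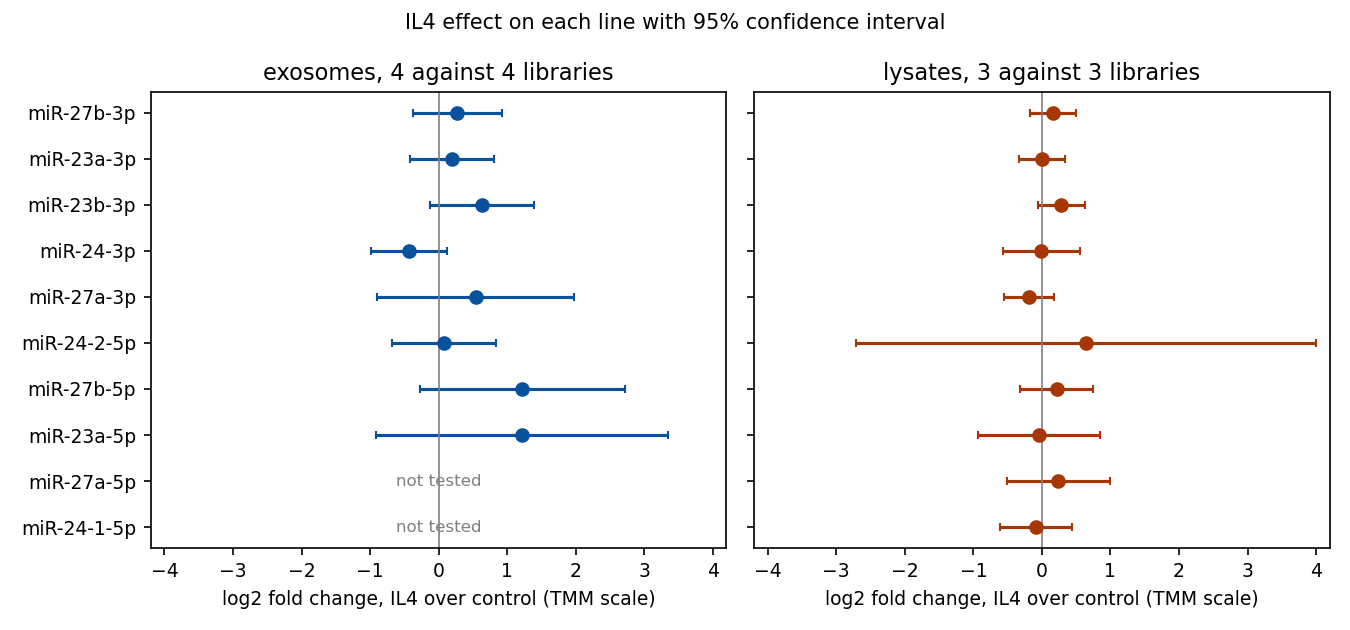
Log2 fold change of IL4 over control for each line with its 95% confidence interval, in exosomes (4 against 4 libraries) and lysates (3 against 3). Every interval includes 0, the lysate intervals of miR-23a-3p, miR-23b-3p, miR-27a-3p and miR-27b-3p are the narrowest, and that of miR-24-2-5p in lysates runs from -2.71 to 4.00.

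Lines that share sequence or place with the members were looked at beside them. miR-128-3p, which carries the bases UCACAGUG at its start where miR-27a-3p has them from base 2, stood at 1633 ± 846 CPM (SD, n = 4) in control exosomes and 1223 ± 194 (n = 4) in IL4 exosomes, and at 841 ± 179 (n = 3) and 566 ± 159 (n = 3) in the lysates, below miR-27a-3p and miR-27b-3p in all 4 group means. miR-23b-5p, the passenger arm of Mir23b, stood at means of 42.7 to 68.4 CPM over the 4 groups. miR-3074-5p, read from the strand opposite to the miR-24 hairpins, had 28 counts (985 CPM) in control exosome replicate 1, at most 73.6 CPM in the other exosomes and at most 4.95 CPM in lysates. Its log2 difference between control exosomes and lysates was 6.06 (SE 1.79), which rests on 28, 4, 3 and 2 reads in control exosome replicates 1 to 4. With IL4 it was 2.50 (SE 2.0). Exosome libraries alone carried miR-3074-5p past the filter on low counts, so a test of this difference gives no support and its p-values are left out. The 3p arms miR-3074-1-3p and miR-3074-2-3p had means of 0.690 to 57.7 CPM. Without strand in the counting, which the sources used here do not state, reads of it and of miR-24 could not be told apart.

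The lines most like each guide arm, by the Pearson correlation of log2 CPM over the 14 libraries, differed between members. The points share libraries, depth and group, and the values are a description. miR-24-3p was closest to miR-30e-5p (r = 0.92), miR-16-5p (0.92) and miR-26b-5p (0.86). miR-23b-3p was closest to let-7f-5p (0.86), let-7a-5p (0.84) and let-7d-5p (0.84), and miR-27b-3p to miR-221-5p (0.85), let-7i-5p (0.80) and let-7g-5p (0.79). miR-23a-3p was closest to miR-130b-5p (0.77), miR-361-3p (0.73) and let-7c-5p (0.72). miR-27a-3p was closest to miR-183-5p (0.83), miR-6990-5p (0.76) and miR-423-3p (0.74), and miR-183-5p was also highest in IL4 exosome replicate 1, at 499.7 CPM. After the group means were taken out, the correlation over the 14 libraries was 0.93 for miR-27a-3p with miR-27b-3p, 0.78 for miR-23b-3p with miR-27a-3p and 0.78 for miR-23a-3p with miR-27b-3p. Within the clusters it was 0.74 for miR-23a-3p with miR-27a-3p and 0.71 for miR-23b-3p with miR-27b-3p. It was 0.49 for miR-23a-3p with miR-23b-3p, and it ran from -0.19 to 0.16 for miR-24-3p with the 4 other guide arms.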

How the data were processed

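Small RNA libraries of 8 exosome and 6 lysate samples were read from the authors' deposited table, which holds raw counts for each mature miRNA. Per the labels' protocols, libraries were made with the NextFlex small RNA kit, and cutadapt and the build mm10 are named in the submitters' processing notes. For the aligner, the counting and its use of strand nothing is given in the sources used here. Columns were matched to samples by title, and 0 columns were left unused. edgeR 4.0.16 (R 4.3.3; filterByExpr, TMM, glmQLFit, glmQLFTest, two-sided) was run on all lines adjusted by Benjamini-Hochberg, with 0.05 as the threshold: IL4 against control within exosomes and within lysates, and, over all 14 libraries, exosomes against lysates and the difference of the IL4 effects. SE is the absolute log2 difference divided by the square root of F. Log2 differences are on the TMM scale, and CPM use library totals. Ratios of counts within a library were compared by two-sided exact permutation tests, adjusted over 22 tests, where both lines had counts in every library. Otherwise counts were pooled by group with exact 95% intervals, which cover counting error only, since PCR reads are not independent molecules. Both scripts were tested on simulated data. Floors are 3 counts. The date in the titles pairs the libraries of a compartment: libraries of 1 date deviated together from their group means (r = 0.46, 0.19, 0.72 and 0.27 in exosomes, 0.61, 0.26 and 0.28 in lysates).

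Alternatives were DESeq2 1.42.0 (test and size factors), library size alone, no filter, other fits, the date as a block, and leaving out each library or the 25 January exosomes. Results without control lysate replicate 2 were added for the IL4 comparison after its count of 0 was seen. The ratio test over means of each date, the miR-27a-5p pools without single exosome libraries and the epithelial sum without miR-203-3p were also added after the data were seen. The members and lists were chosen with earlier results of these data known. The text names all 10 members, lines that share their seed, a shifted seed or their locus, the 3 most correlated lines for each of 5 guide arms, and called lines of the activation list as examples. Marker lists cover red cells, endothelium, epithelium, stroma, muscle, lymphocytes, liver and myeloid cells. Stromal markers took 0.356% to 0.985% of exosome counts against 0.247% to 0.450% of lysate counts, and muscle 0.0287% to 0.331% against 0.000145% to 0.00101%. miR-150-5p (lymphocyte) took 0.0639% to 0.187% against 0.000939% to 0.00281%, and miR-122-5p (liver) 0.0902% to 1.20% against 0.000290% to 0.0281%. By edgeR, 29.3% of all lines tested were called higher in exosomes than in lysates in controls and 30.2% with IL4. The 2 muscle lines tested, miR-150-5p and miR-122-5p were among them in both treatments. Exosome libraries alone carried the muscle lines past the filter on low counts. Of 5 stromal lines tested, 3 were called higher and 1 lower in controls, where 21.6% of all lines were called lower, and 4 higher with IL4.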

Additional observations from a re-analysis of the deposited data

Results flagged for a closer look

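In groups of 4 libraries, 35 sets of member values were checked for a library that stands apart from the other 3, meaning a gap of more than 0.829 of the group's range, and 4 were found. Chance alone flags about 1 in 20 groups. In the first, miR-23a-5p stood at 598 CPM in control exosome replicate 1, against 27.3 to 105.5 CPM in the other control exosomes. In the second, miR-27a-5p stood at 18.4 CPM in control exosome replicate 2, which is 1 read, against 0 in the other 3 control exosomes. With 3 libraries at 0, any count in the last one is flagged, so this flag says nothing beyond the zeros. The rate of 1 in 20 does not hold for such counts. miR-27a-3p stood at 25404 CPM in IL4 exosome replicate 1, against 3734 to 7324 CPM in the other IL4 exosomes. Last, the log2 ratio of miR-27b-3p to miR-27b-5p was 5.47 in IL4 exosome replicate 2, the lowest of the 4. Of these 4 values, 2 come from the 25 January exosome libraries, which were also the highest in miR-203-3p.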

How the results depend on the processing

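The depth of the exosome libraries limits the 5p arms, where differences rest on few reads. No member passed in either IL4 comparison or in their difference under any alternative run. With the date as a replicate block the member calls stayed at 0 in all 3, the lysate calls over all lines became 50, miR-23a-5p in lysates turned to 0.019 and miR-24-3p in lysates to 0.012. The cause of changes was not tested, except that fewer libraries allow fewer permutations. Of 705 member log2 differences over alternatives, 606 kept direction and side of the threshold.

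DESeq2's test called 4 members with IL4 and 2 in controls between exosomes and lysates. It turned miR-23a-3p to -0.020 (IL4 in lysates) and 0.11 (exosomes over IL4 lysates), and miR-24-2-5p to 0.31 (exosomes over control lysates). DESeq2's size factors in edgeR called 2 of 10 members in controls, both lower, where 156 of 338 lines were called and 47 of them as lower. They gave -0.026, 0.11 and 0.33 for the same values, and 0.0093 for miR-24-1-5p in exosomes over IL4 lysates. With library size alone, all lines called were 0 for IL4 in exosomes and 14 in lysates. Between exosomes and lysates in controls 1 of 10 members was called, where 142 of 338 lines were. For IL4, miR-23a-3p in lysates became -0.21, miR-27b-3p in lysates -0.036 and miR-24-2-5p in exosomes -0.11. Exosomes over lysates became 0.23, 0.71 and 0.13 in controls for miR-23a-3p, miR-24-2-5p and miR-24-3p, and 0.46, 0.40, 0.22 and 0.061 with IL4 for miR-23a-3p, miR-24-1-5p, miR-24-2-5p and miR-27b-3p.

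With no filter on low counts, the calls over all lines were 12 for IL4 in exosomes and 3 for the difference of IL4 effects. Between IL4 exosomes and lysates 6 members were called, where 49.4% of all lines tested passed in the main fit. miR-23a-3p (IL4 in lysates) became -0.025, miR-23a-5p and miR-27a-3p (exosomes over lysates in controls) -0.13 and -0.15, and miR-24-3p (difference of effects) 0.020. In 1 fit over all 14 libraries, IL4 in lysates gave 4 calls and -0.063 for miR-23a-3p. A fit of the control libraries alone gave 0.21 for miR-24-2-5p.

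Without the 25 January exosome libraries, the members called between IL4 exosomes and lysates changed, where the main fit called 2 of 10 members and 49.4% of all lines tested. For IL4 in exosomes miR-24-2-5p became -0.0069 and miR-27a-3p -0.11. For exosomes over lysates in controls miR-23a-5p became -0.86, miR-24-2-5p 0.085 and miR-27a-3p -0.023, and the difference of effects of miR-27b-3p became -0.044. Of the log2 ratios between exosomes and lysates, miR-27a-3p to miR-27b-3p became 0.99, miR-23a-3p to miR-27a-3p -0.56, with an adjusted exact permutation p of 0.0419, and miR-24-3p to miR-27b-3p 0.23. Within controls the ratio of miR-24-3p to miR-27b-3p was 0.19 and that of miR-27a-3p to miR-27b-3p 1.14, and the latter was 1.43 within IL4, where neither subset can pass after adjustment. With the date as a replicate block, as means of each date, that ratio was 1.29 with an adjusted exact permutation p of 0.35.

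Leaving out 1 library at a time gave these ranges. All lines called were 0 to 2 for IL4 in exosomes and 2 to 34 in lysates. The members called between IL4 exosomes and lysates changed with single libraries, with none called without IL4 lysate replicate 2. In the main fit 2 of 10 members and 49.4% of all lines tested were called there. For IL4 in exosomes, miR-27a-3p ran from -0.47 to 1.15 and miR-24-2-5p from -0.019 to 0.41. For IL4 in lysates, miR-23a-3p ran from -0.095 to 0.096, miR-23a-5p from -0.34 to 0.43, miR-27a-5p from -0.021 to 0.56, miR-24-3p from -0.21 to 0.19 and miR-24-1-5p from -0.29 to 0.010. For exosomes over lysates in controls, miR-23a-5p ran from -0.60 to 0.89 and miR-24-2-5p from -0.61 to 0.44, and with IL4, miR-23a-3p from -0.32 to 0.052 and miR-24-1-5p from -0.87 to 0.26. For the difference of effects, miR-27a-3p ran from -0.087 to 1.33, miR-24-3p from -0.53 to 0.036, miR-24-1-5p from -0.026 to 1.53 and miR-24-2-5p from -0.75 to 0.14. Log2 ratios between exosomes and lysates ran from 0.44 to 0.70 for miR-23a-3p to miR-23b-3p, 1.11 to 1.40 for miR-27a-3p to miR-27b-3p, -1.07 to -0.70 for miR-23a-3p to miR-27a-3p, -0.17 to 0.15 for miR-24-3p to miR-27b-3p and 0.76 to 1.28 for miR-27b-3p to miR-27b-5p. For IL4, those of miR-27a-3p to miR-27b-3p and miR-23a-3p to miR-27a-3p in exosomes ran from -0.42 to 0.18 and -0.25 to 0.50, and those of miR-23a-3p to miR-23a-5p and miR-27b-3p to miR-27b-5p in lysates from -0.30 to 0.29 and -0.18 to 0.21.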
